A study of Mus musculus with 2 samples.

Results

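The neurotrophins and their receptors are described here as 7 genes, taken by symbol. The 3 ligands are Bdnf (brain-derived neurotrophic factor), Ntf3 (neurotrophin-3) and Ntf5 (the mouse gene of neurotrophin-4). The 4 receptors are Ntrk2 (TrkB), Ntrk3 (TrkC), Ngfr (the p75 neurotrophin receptor) and Sort1 (sortilin). All 7 were among the 17758 genes of a single-cell table and among the 16906 genes of a bulk table, both from mouse peripheral lung at postnatal day 3. The bulk sample was 1 library of PDGFRA+ cells, sorted from lungs of Pdgfra-H2BGFP mice by the nuclear GFP that this knock-in allele puts under control of Pdgfra. The single-cell sample, also 1 library, came from wild-type lung cells that were sorted and loaded on 10x Chromium 3′ v3 chips. The labels call both control lungs and do not say whether animals were pooled. The series title places the study in the question of how autonomic nerves and myofibroblasts take part in alveolar formation.

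Neurotrophins are secreted as proforms that proteases cut to mature growth factors. Mature BDNF and neurotrophin-4 bind TrkB, neurotrophin-3 binds mainly TrkC, and all of them bind p75 with lower affinity, whereas sortilin binds the proforms and sorts them inside the cell. In many organs the ligands are made by the tissue that growing sympathetic and sensory axons reach, and airway smooth muscle is a known source. TrkB and TrkC also have truncated isoforms without a kinase domain, and values per gene do not tell them from the full-length forms.

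The genes lie apart on the mm10 genome (GENCODE M21). Bdnf (ENSMUSG00000048482.14) is at chr2:109674700-109727007, Ntf3 (ENSMUSG00000049107.13) at chr6:126101412-126166910 and Ntf5 (ENSMUSG00000074121.3) at chr7:45413695-45417179. Ntrk2 (ENSMUSG00000055254.15) is at chr13:58806569-59133970, Ntrk3 (ENSMUSG00000059146.12) at chr7:78175959-78738012, Ngfr (ENSMUSG00000000120.6) at chr11:95568818-95587735 and Sort1 (ENSMUSG00000068747.14) at chr3:108284082-108361511. Exons of Bdnf overlap Gm45346 and exons of Sort1 overlap Gm12523 on the opposite strand. Neither of those genes is listed in either table. The sources used here do not say whether bulk counting used strand, so bulk reads of Bdnf and Sort1 may include antisense reads.

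Promoter windows were read for the ligands that smooth muscle-like cells held, because Bdnf and Ntf3 were both highest there. The RefSeq table (GRCm38.p6, 250 bases before to 50 bases after each start) held 7 windows of Bdnf, 2 of Ntf3, 1 of Ntrk2 and 1 of Ngfr. Of these 11 windows, 1 held CGTCA, the core of the cAMP response element, searched on both strands. It is the Bdnf window at chr2:109692186-109692485 (plus strand), and the core is in capitals in the sequence shown. The 2 Ntf3 windows, at chr6:126166695-126166994 and chr6:126164911-126165210 (minus strand), are shown beside it and held none.
Bdnf: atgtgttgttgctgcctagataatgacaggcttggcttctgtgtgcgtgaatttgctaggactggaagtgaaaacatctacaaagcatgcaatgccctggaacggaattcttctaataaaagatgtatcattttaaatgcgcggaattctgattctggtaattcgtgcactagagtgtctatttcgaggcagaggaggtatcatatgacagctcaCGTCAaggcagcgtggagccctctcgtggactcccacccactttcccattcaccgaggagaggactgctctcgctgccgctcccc
Ntf3, outer start: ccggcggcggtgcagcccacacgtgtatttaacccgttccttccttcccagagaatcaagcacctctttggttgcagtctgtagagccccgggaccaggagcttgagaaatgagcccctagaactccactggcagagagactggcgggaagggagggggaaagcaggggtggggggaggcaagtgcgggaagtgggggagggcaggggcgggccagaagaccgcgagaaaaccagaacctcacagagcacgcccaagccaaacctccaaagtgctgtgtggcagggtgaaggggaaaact
Ntf3, inner start: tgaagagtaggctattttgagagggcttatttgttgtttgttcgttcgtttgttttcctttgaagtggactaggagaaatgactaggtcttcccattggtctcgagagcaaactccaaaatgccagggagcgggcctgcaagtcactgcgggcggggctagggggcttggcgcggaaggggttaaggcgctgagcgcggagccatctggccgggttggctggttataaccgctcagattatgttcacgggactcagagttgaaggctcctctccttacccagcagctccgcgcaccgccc
The core was present in 20.8% of all 32851 promoter windows. The full element TGACGTCA, which contains the core, was present in 1.79% of all windows and in 0 of the 11. The CArG box, the element that serum response factor binds in many muscle genes, was present in 1.63% of all windows and in 0 of the 11. A match or its lack describes these letters only.

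The single-cell table held 11306 cells with a median of 5537 UMIs, and 3859 to 6899 per cell. This narrow span is that of values already corrected for depth, so levels are given as CPM (summed UMIs of a class scaled to 1000000) with no interval. After 646 cells over 10% mitochondrial UMIs and 461 predicted doublets were left out, 10199 cells remained. They fell into 36 clusters, which were named "-like" from marker genes. The 5 mesenchymal classes were 240 smooth muscle-like, 133 pericyte-like, 657 myofibroblast-like, 778 lipofibroblast or matrix fibroblast-like and 239 adventitial fibroblast-like cells. Shares are cells with at least 1 UMI of a gene, with exact Clopper-Pearson 95% intervals. All intervals cover counting error only. With 1 library in each group there is no replicate check, and no difference was tested.

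The classes were named from scores of their markers, so the marker levels describe them and are no separate check of the names. All 9 smooth muscle markers had a log2 ratio of 1 or more in smooth muscle-like cells over all other cells, as did all 11 pericyte markers in pericyte-like cells and all 9 myofibroblast markers in myofibroblast-like cells. In the lipofibroblast or matrix and adventitial classes, 8 of 9 and 7 of 9 own markers did. Myofibroblast-like cells also had 8 of the 9 smooth muscle markers at that ratio. Smooth muscle-like cells had 6 of the 11 pericyte markers at it, and pericyte-like cells 3 of the 9 smooth muscle markers. Adventitial fibroblast-like cells had 5 of the 11 pericyte markers at it, so the classes share markers. Acta2 (smooth muscle actin) was at 8404 CPM in smooth muscle-like and 3349 CPM in myofibroblast-like cells. Actc1 (cardiac actin) was at 943 CPM in smooth muscle-like and 48.3 CPM in myofibroblast-like cells. No cluster took a neuronal or Schwann cell name, and of 7 Schwann markers 2 were in the table, at a summed 2.10 CPM in smooth muscle-like cells and 3.52 CPM in all others. In adventitial fibroblast-like cells these 2 summed to 7.51 CPM, against 3.38 CPM in all others, and neither was in 5% of the cells. Their part in the levels of the receptors there was not tested.

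**Figure D1:**
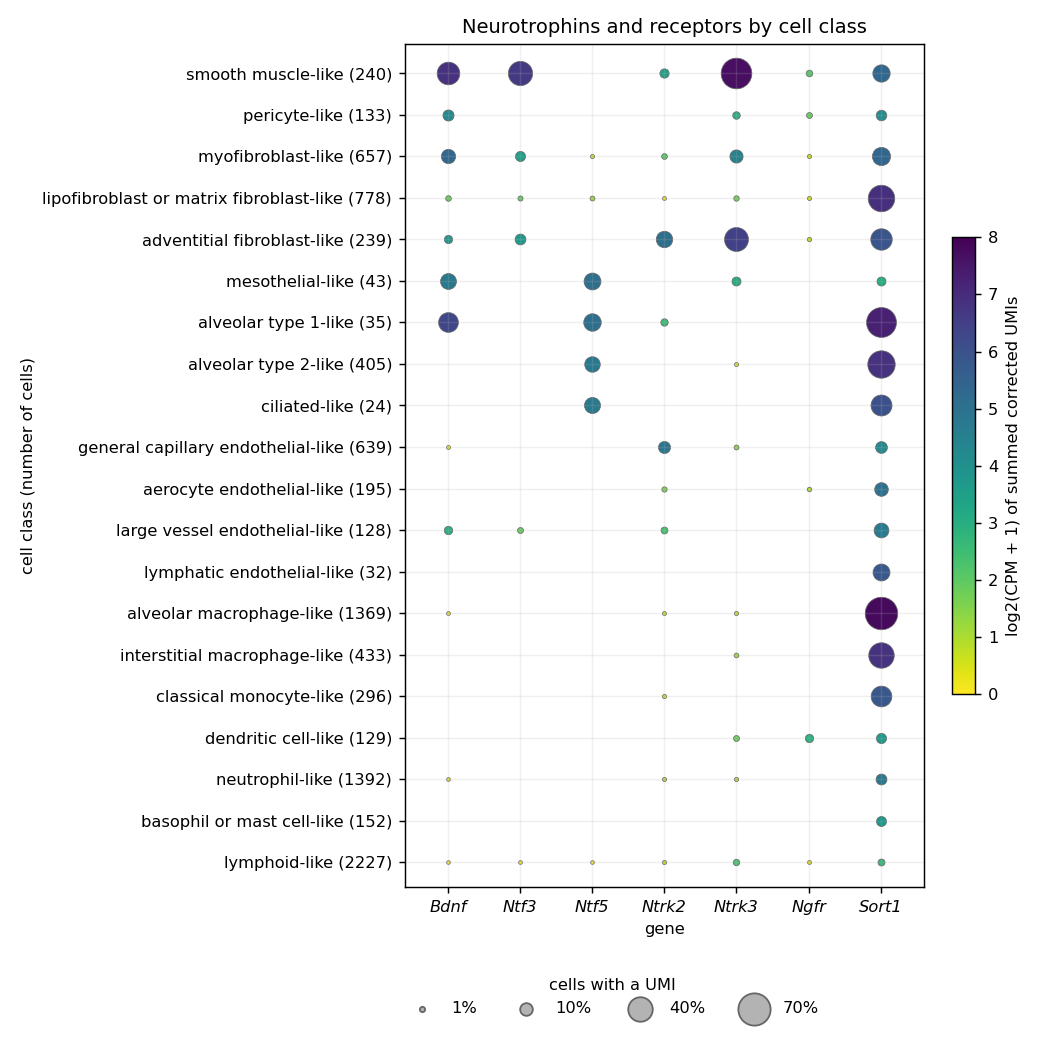
Dot colour is the level of each gene as log2(CPM + 1) of summed depth-corrected UMIs, and dot size is the share of cells with at least 1 UMI, in 20 marker-named cell classes of 1 library. No dot is drawn where no cell had a UMI. Bdnf, Ntf3 and Ntrk3 are largest together in the smooth muscle-like row, at 34.2%, 39.2% and 63.3% of cells.

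Smooth muscle-like cells carried the ligands Bdnf and Ntf3 together with the receptor Ntrk3. Bdnf was at 116 CPM in smooth muscle-like cells and 4.30 CPM in all other cells, a log2 ratio of 4.46. Ntf3 was at 98.9 CPM in smooth muscle-like cells and 1.34 CPM in all other cells, a log2 ratio of 5.42. Ntrk3 was at 207 CPM in smooth muscle-like cells and 5.54 CPM in all other cells, a log2 ratio of 4.99. Each of these 3 ratios was higher than those of 99.6% or more of the 15397 genes compared. A log2 ratio of 1 or more was found for 5 of the 7 genes, against 9.85% of all genes compared, and one of -1 or less for 1 gene, against 19.0%. The median ratio was 1.81 for the 7 genes and -0.11 for all genes compared. Ratios add 1 CPM to both sides, and with 5 CPM added, the 3 genes past 1 were Bdnf, Ntf3 and Ntrk3.

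The other 4 genes had no comparable levels in smooth muscle-like cells. Ntrk2 had 14 UMIs there (9.82 CPM) against 3.43 CPM in all other cells. Ngfr had 5 UMIs in 5 of 240 cells. Sort1 was at 41.4 CPM in smooth muscle-like cells and 72.2 CPM in all other cells, a log2 ratio of -0.79. With at least 1000 detected genes and at most 5% mitochondrial UMIs, the Sort1 ratio was -1.16, a lower call. Ntf5 had no UMI, and a limit of 3 cells in the class puts the share of cells with a UMI at up to 1.25%. Limits of this kind, given where no cell had a UMI, concern cells with a UMI and not cells that express the gene. A floor of 3 UMIs in this class is 2.10 CPM, above the 1.73 CPM of Ntf5 in all other cells, so the lower call of Ntf5 rests on no detectable difference.

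Bdnf was found beyond the mesenchyme as well. The share of cells with a Bdnf UMI was 34.2% (28.2 to 40.5) in smooth muscle-like cells, 82 of 240. It was 25.7% (12.49 to 43.3) in the 35 alveolar type 1-like cells and 16.3% (6.81 to 30.7) in the 43 mesothelial-like cells. It was 13.1% (10.6 to 15.9) in myofibroblast-like, 7.52% (3.66 to 13.4) in pericyte-like and 3.77% (1.74 to 7.03) in adventitial fibroblast-like cells. It was 1.29% (0.618 to 2.35) in lipofibroblast or matrix fibroblast-like cells. The interval of smooth muscle-like cells overlaps those of both small classes and lies above those of the other mesenchymal classes. Of the 223 Bdnf-positive cells of the library, 82 were smooth muscle-like and 86 myofibroblast-like. Within the myofibroblast-like class, the cluster of 520 cells was at 48.1 CPM and the cluster of 137 cells at 11.7 CPM. In alveolar type 2-like cells 0 of 405 had a Bdnf UMI, and the limit of 3 cells is 0.741%.

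Ntf3 was more concentrated than Bdnf. Smooth muscle-like cells held 65.6% of its 215 UMIs, and 39.2% of these cells (33 to 45.7) had one. The next classes were adventitial fibroblast-like cells at 7.11% (4.2 to 11.1) and myofibroblast-like cells at 6.09% (4.38 to 8.20), whose intervals overlap. It was at 0 in pericyte-like, mesothelial-like and all 3 epithelial classes.

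Ntf5 had a different pattern from the other ligands. Its 96 UMIs were mainly epithelial, with 66.7% of them in alveolar type 2-like cells. The share of cells was 7 of 35 (8.44% to 36.9%) in alveolar type 1-like, 18.6% (8.39 to 33.4) in mesothelial-like, 16.7% (4.74 to 37.4) in ciliated-like and 15.6% (12.2 to 19.5) in alveolar type 2-like cells, and these intervals overlap. In the mesenchymal classes the highest share was 0.771%, in lipofibroblast or matrix fibroblast-like cells. Alveolar type 1-like cells, the flat cells of gas exchange, and mesothelial-like cells thus held UMIs of both TrkB ligands, as did some larger classes at lower shares. In alveolar type 1-like cells 3 of 35 were positive for both, where the product of the shares gives 1.8. The observed count over the product was 1.67, with an interval of 0.351 to 4.48 that includes 1. In mesothelial-like cells 2 of 43 were positive for both, and the interval of the same ratio, 0.188 to 5.22, includes 1 too. This pair was counted only after the levels were seen.

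The receptor Ntrk3 was ordered in 3 steps. The share of cells was 63.3% (56.9 to 69.4) in smooth muscle-like, 38.1% (31.9 to 44.6) in adventitial fibroblast-like and 11.0% (8.67 to 13.6) in myofibroblast-like cells, and no interval of these 3 overlaps another. Pericyte-like cells were at 3.01% (0.825 to 7.52) and lipofibroblast or matrix fibroblast-like cells at 1.16% (0.530 to 2.18). Lymphoid-like cells were at 1.98%, or 44 of 2227 cells.

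Ntrk2 had its highest shares in adventitial fibroblast-like and general capillary endothelial-like cells. Its share was 17.6% (13 to 23) in adventitial fibroblast-like cells and 9.08% (6.96 to 11.6) in general capillary endothelial-like cells, and these intervals do not overlap. It was 5.0% (2.61 to 8.57) in smooth muscle-like, 2.34% (0.486 to 6.70) in large vessel endothelial-like and 1.03% (0.124 to 3.66) in aerocyte endothelial-like cells. Endothelial-like cells as a whole held 51.0% of its 204 UMIs and adventitial fibroblast-like cells 24.0%. In pericyte-like cells 0 of 133 had a UMI, and the limit of 3 cells is 2.26%.

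Sort1 was the most widespread gene and was not mesenchymal in its highest levels. Alveolar macrophage-like cells were at 223 CPM, with a UMI in 71.2% of 1369 cells. Alveolar type 1-like cells were at 152 CPM, lipofibroblast or matrix fibroblast-like cells at 119 CPM and alveolar type 2-like cells at 115 CPM. Adventitial fibroblast-like cells were at 60.1 CPM, smooth muscle-like cells at 41.4 CPM, myofibroblast-like cells at 40.5 CPM and pericyte-like cells at 16.2 CPM. Lymphoid-like cells were at 5.39 CPM.

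Ngfr had 21 UMIs in 21 cells of the whole library. Of these, 5 were in smooth muscle-like cells, 5 in dendritic cell-like cells (3.88% of 129), 2 in pericyte-like, 2 in myofibroblast-like and 2 in lipofibroblast or matrix fibroblast-like cells. Its share in smooth muscle-like cells, 2.08% (0.680 to 4.79), overlaps that in dendritic cell-like cells (1.27 to 8.81).

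Free RNA gives UMIs in cells that do not express a gene, so the shares stand beside those in myeloid-like cells, which had a median of 1968 detected genes against 2403 in smooth muscle-like cells. Among 4244 myeloid-like cells the share was 0.0707% for Bdnf, 0.0236% for Ntf5, 0.189% for Ntrk2, 0.401% for Ntrk3 and 0 for Ntf3. The 5 Ngfr-positive myeloid-like cells were the 5 dendritic cell-like cells, and no other myeloid-like cell had an Ngfr UMI. For Sort1 the lowest large class was lymphoid-like, at 2.42% with a median of 1638 detected genes.

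**Figure D2:**
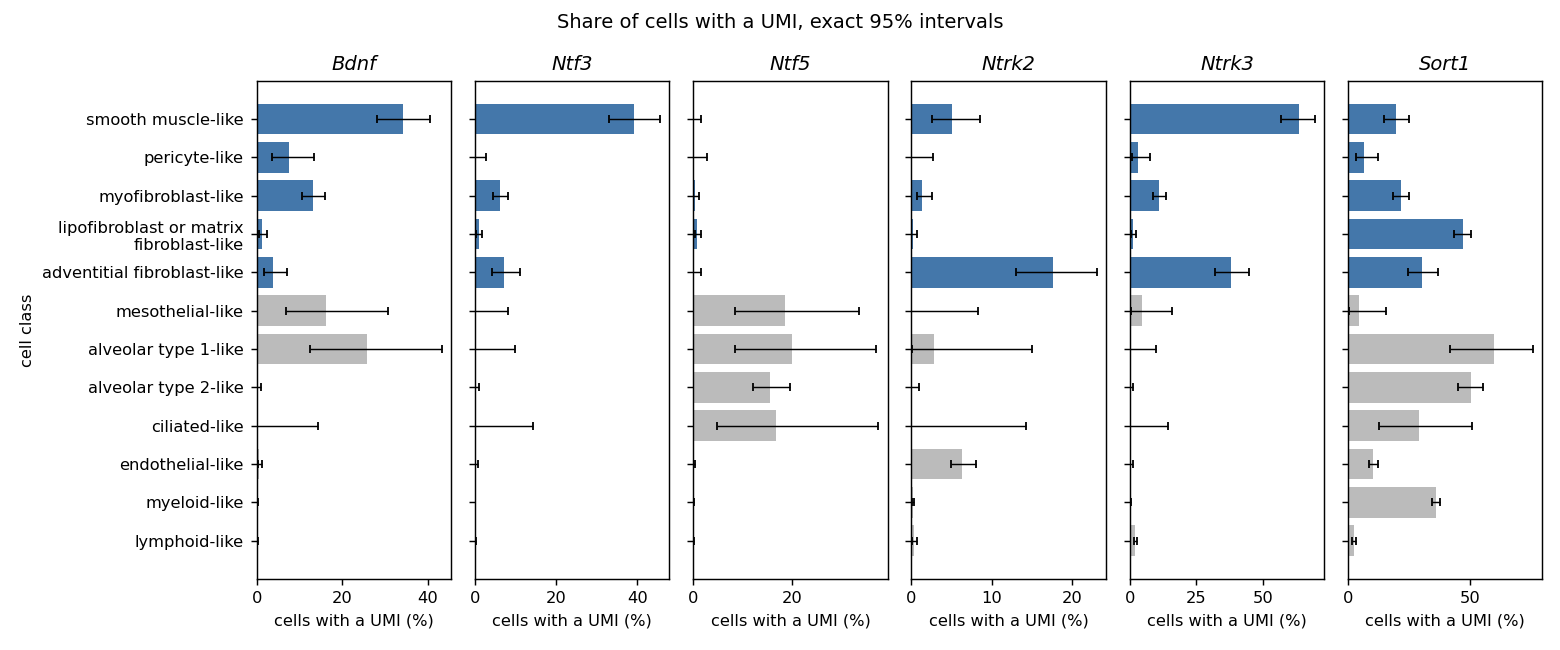
Bars are the share of cells with at least 1 UMI of each gene in 12 cell classes, with exact 95% intervals, and blue bars are the mesenchymal classes. Ntrk3 steps down across smooth muscle-like, adventitial fibroblast-like and myofibroblast-like cells at 63.3%, 38.1% and 11.0%, while the highest Ntf5 bars are epithelial and mesothelial.

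Each other mesenchymal class had fewer of the 7 genes at a log2 ratio of 1 or more than smooth muscle-like cells. Lipofibroblast or matrix fibroblast-like cells had none. In pericyte-like cells, Bdnf was at 17.5 CPM against 6.96 CPM in all other cells, and 2 of the 7 genes had a log2 ratio of 1 or more (10.8% of all genes) and 4 at -1 or less (23.7%). Of those 4, Ntf3, Ntf5 and Ntrk2 had no UMI in the class, and a floor of 3 UMIs there is 4.05 CPM, above their level in all other cells. The lower call that remains is Sort1, at 16.2 CPM against 72.2 CPM, and it alone was past 1 in size with 5 CPM added. Ntrk3, with 5 UMIs in the class, was at -0.59. It was a lower call with at least 1000 detected genes and at most 5% mitochondrial UMIs (-1.74), where the class had 61 cells. Ntrk3 was then at 2.78 CPM, under the floor of 4.05 CPM of the 133 cells, so that call rests on very few UMIs. With predicted doublets kept, Ntrk3 was also a lower call (-1.06), at 4.57 CPM in 155 cells. The higher calls were Bdnf and Ngfr, the second with 2 UMIs. The median of the 7 ratios was -1.44, or 0.12 with the genes at 0 set to the floor, and -0.14 for all genes.

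In myofibroblast-like cells, 2 of the 7 genes had a log2 ratio of 1 or more (16.2% of all genes) and 0 at -1 or less (17.9%). They were Bdnf, with a log2 ratio of 2.89, and Ntf3, with 1.39. Ntrk3 was just under the bound, at 0.97. At a finer clustering (resolution 2), where 357 cells were smooth muscle-like and 540 myofibroblast-like, the Ntf3 ratio of myofibroblast-like cells was 0.78, and Ntrk2 (-1.11) and Ntf5 (-1.09) were lower calls. With at least 1000 detected genes and at most 5% mitochondrial UMIs, Ntf5 (-1.22) and Sort1 (-1.05) were lower calls. With 5 CPM added to both sides, Bdnf alone was past 1.

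In adventitial fibroblast-like cells, 3 of the 7 genes were at 1 or more (14.9% of all genes) and 1 at -1 or less (18.3%). The higher 3 were Ntrk3, at 88.8 CPM with a log2 ratio of 3.24, Ntrk2, at 33.5 CPM with a log2 ratio of 3.18, and Ntf3, at 11.6 CPM with a log2 ratio of 1.46. Both Trk receptors were thus high in one class. The lower one, Ntf5, had no UMI, and the floor of 2.05 CPM is above its level in all other cells. With 5 CPM added to both sides, Ntrk2 and Ntrk3 were past 1 and Ntf3 was not.

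In lipofibroblast or matrix fibroblast-like cells, 0 of the 7 genes were at 1 or more (14.3% of all genes) and 3 at -1 or less (19.7%). The lower 3 were Bdnf (-1.19), Ntrk2 (-1.99) and Ntrk3 (-1.92). With at least 1000 detected genes and at most 5% mitochondrial UMIs, Bdnf was at -0.51 and no longer a lower call. Ntrk2 (-1.59) and Ntrk3 (-1.61) were lower calls there too. Sort1, at 0.81, was the highest ratio in that class. With 5 CPM added, Ntrk3 alone was past -1.

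**Figure D3:**
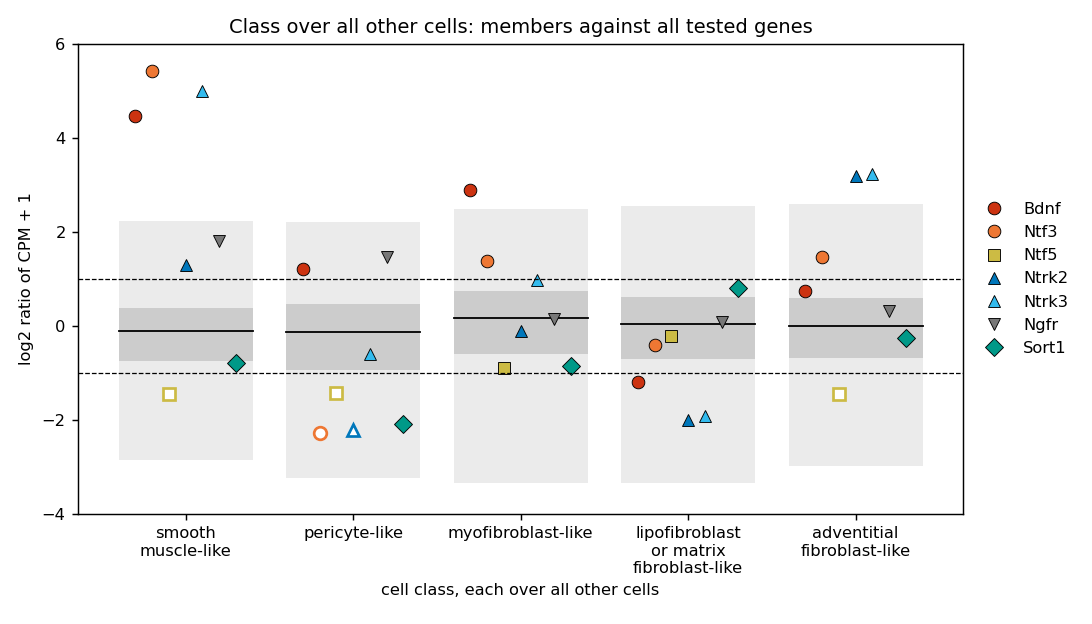
Each symbol is the log2 ratio of 1 gene in a mesenchymal class over all other cells, with 1 CPM added to both sides, and open symbols have no UMI in the class. Dark and light bars span the middle 50% and the middle 95% of all 15397 genes compared, black lines are their medians, and dashed lines mark 1 and -1. Bdnf, Ntf3 and Ntrk3 stand above the light bar in smooth muscle-like cells, at 4.46, 5.42 and 4.99.

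Ligand and receptor were counted in the same cell over 11 pairs, of which 4 were added after the levels were seen. In smooth muscle-like cells, Ntf3 and Ntrk3 were found together in 59 cells, and the product of their shares gives 59.5. Ntrk3 had a UMI in 62.8% (52.2 to 72.5) of the Ntf3-positive cells and in 63.7% (55.3 to 71.5) of the Ntf3-negative cells. The ligand and its receptor were thus in the same class, and within it a cell with one was met with the other as often as the shares give. With a value of 2 or more as the bound, the observed count over the product was 1.33, against 0.99. The mean value of Ntf3 was 1.5 in its 94 positive cells, so fewer cells count at that bound. The 1.33 is given without an interval and is not read as an excess.

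The ligands Bdnf and Ntf3 were together in 24 smooth muscle-like cells, where the product of shares gives 32.1. Ntf3 had a UMI in 29.3% (19.7 to 40.4) of Bdnf-positive and 44.3% (36.4 to 52.4) of Bdnf-negative cells, and these intervals overlap. Bdnf and Ntrk3 were together in 56 cells, against 51.9. Bdnf and its receptor Ntrk2 were together in 4 cells, against 4.10. All 12 Ntrk2-positive cells of the class had an Ntrk3 UMI, where the product gives 7.6. The observed count over the product was 1.58, with an interval of 0.82 to 2.71 that includes 1. This pair was counted only after the levels were seen. Of the 240 cells, 33 had none of Bdnf, Ntf3 and Ntrk3, 104 had 1 of them, 85 had 2 and 18 had all 3.

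Among other classes, Bdnf and Sort1 were together in 28 myofibroblast-like cells, where the product gives 18.6. Sort1 had a UMI in 32.6% (22.8 to 43.5) of Bdnf-positive and 19.97% (16.8 to 23.5) of Bdnf-negative cells there, with overlapping intervals. The cells with both had a median of 3006 detected genes, and the others 2801. In adventitial fibroblast-like cells, Ntrk2 and Ntrk3 were together in 14 cells, against 16.0, and Ntf3 and Ntrk3 in 10, against 6.47. In alveolar type 2-like cells, Ntf5 and Sort1 were together in 30 cells, against 31.7.

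Within the smooth muscle-like class, a clustering of the 240 cells without the neurotrophin genes gave 7 groups. Their levels lay between 46.3 and 193 CPM for Bdnf, between 61.8 and 126 CPM for Ntf3 and between 89.2 and 252 CPM for Ntrk3. The lowest Bdnf level was in a group of 7 cells, 2 of them positive. The highest Ntf3 level was in a group of 30 cells led by C1qa, Stfa2l1 and S100a8, which are immune cell genes. A group of 72 cells led by Atf3, Irs2 and Cxcl1 was at 193 CPM of Bdnf, and a group of 75 cells led by Rgs5 and Ltbp2 at 47.6 CPM. The same groups were at 105 and 102 CPM of Ntf3 and at 252 and 195 CPM of Ntrk3. The lowest Ntrk3 level was in a group of 23 cells led by the cell cycle genes Cenpf and Prc1, at 89.2 CPM, with 9 of the 23 cells positive. Because Atf3 is a stress gene, the cells were split at the median of their share of UMIs in 25 stress and immediate-early genes, a list chosen after these groups were seen. Bdnf was then at 177 CPM in the cells above the median (58 of 120 with a UMI) and 53.5 CPM in those below (24 of 120). Ntf3 was at 101 CPM in the cells above and 97.2 CPM in those below, and Ntrk3 at 236 CPM in the cells above and 177 CPM in those below. The split uses the cells that led to the list, so it describes them and is no separate evidence.

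Bdnf was also higher above the median than below it in the other mesenchymal classes. Myofibroblast-like cells were at 52.8 CPM above the median and 27.9 CPM below it. Adventitial fibroblast-like cells had 17 Bdnf UMIs above the median and 1 below it. Pericyte-like cells had 8 above and 5 below, and lipofibroblast or matrix fibroblast-like cells 8 above and 4 below. In the adventitial, pericyte-like and lipofibroblast or matrix classes, the intervals of the Bdnf share above and below the median overlap, so the direction there rests on few UMIs. The list itself summed to 15475 CPM in smooth muscle-like, 12048 CPM in adventitial fibroblast-like, 5344 CPM in myofibroblast-like and 2407 CPM in pericyte-like cells. At a similar level of the list, smooth muscle-like cells below their median (7710 CPM of the list) had 53.5 CPM of Bdnf, and myofibroblast-like cells above theirs (8997 CPM of the list) had 52.8 CPM. Myeloid-like cells had 9294 CPM of the list and 0.173 CPM of Bdnf. The part of the stress genes in the Bdnf result was not tested.

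UMIs of 6 immune genes were found in 212 of the 240 smooth muscle-like cells. In the 28 cells without any, Bdnf was at 105 CPM, Ntf3 at 64.3 CPM and Ntrk3 at 193 CPM, against 117, 104 and 209 CPM in the 212 cells. Sort1 was at 11.7 CPM in the 28 cells (2 UMIs) and 45.4 CPM in the 212 cells, and the intervals of its share, 0.877% to 23.5% in the 28 cells and 15.9% to 27.4% in the 212, overlap.

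**Figure D4:**
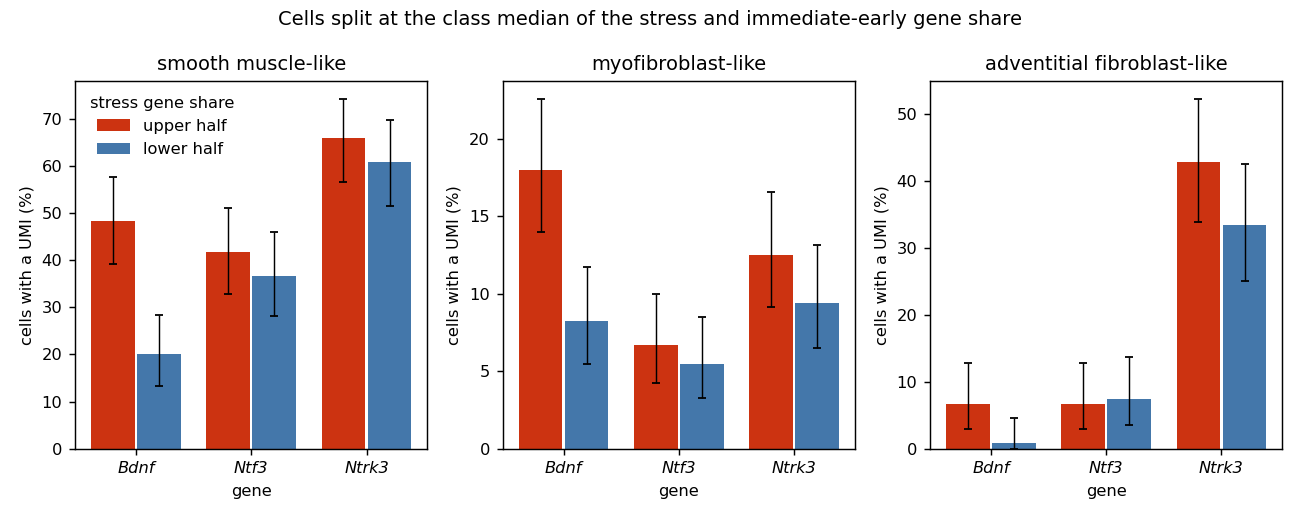
Bars are the share of cells with a UMI of Bdnf, Ntf3 or Ntrk3 in cells above (red) and below (blue) the class median of the share of UMIs in 25 stress and immediate-early genes, in 3 classes, with exact 95% intervals. The Bdnf intervals are apart in smooth muscle-like and myofibroblast-like cells, at 58 and 24 of 120 cells and at 18.0% and 8.21%, and those of Ntf3 and Ntrk3 overlap in all 3 classes.

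In the bulk library of 171910584 reads, Sort1, Ntrk2 and Ntrk3 were above every ligand per length. The deposited TPM was 53.9 for Sort1, 25.99 for Ntrk2, 18.9 for Ntrk3 and 3.66 for Ngfr among the receptors. Among the ligands it was 14.2 for Ntf3, 3.83 for Bdnf and 0.29 for Ntf5. Pdgfra, the gene of the reporter, was at 54.0 TPM. In CPM, with exact Poisson 95% intervals, Sort1 was at 188 (186 to 190), Ntrk2 at 94.3 (92.9 to 95.8), Ntrk3 at 41.9 (41.0 to 42.9), Ntf3 at 9.25 (8.80 to 9.72), Bdnf at 7.76 (7.35 to 8.19), Ngfr at 6.28 (5.91 to 6.66) and Ntf5 at 0.279 (0.206 to 0.370).

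The bulk library differed from the single-cell library most in Ntrk2. Its log2 ratio over all kept single cells was 4.38, followed by Ngfr at 2.41, Ntrk3 at 1.89, Sort1 at 1.39 and Ntf3 at 1.10, while Bdnf was at 0.11 and Ntf5 at -1.07. Thus 5 of the 7 genes were at 1 or more, against 27.6% of 13900 genes, and 1 at -1 or less, against 23.3%. Bulk reads grow with transcript length and 3′ UMIs do not. With the deposited TPM in place of CPM, Sort1 turned to -0.40, and Ntrk2 was at 2.56, Ngfr at 1.77, Ntf3 at 1.67 and Ntrk3 at 0.78. In a bulk sample, fewer cells of a type and less RNA per cell cannot be told apart.

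Single cells with a Pdgfra UMI are the nearer counterpart, and there were 867. Of these, 462 were myofibroblast-like, 170 lipofibroblast or matrix fibroblast-like and 137 adventitial fibroblast-like. Others were 48 myeloid-like, 19 endothelial-like and 11 lymphoid-like cells. Ntrk2 was at 94.3 CPM in bulk and 6.82 CPM in the 867 cells, a log2 ratio of 3.61. Ngfr was at 6.28 CPM in bulk and 1.14 CPM in the 867 cells, a log2 ratio of 1.77 that rests on 6 positive cells. Bdnf was at 7.76 CPM in bulk and 20.1 CPM in the 867 cells, a log2 ratio of -1.27. Sort1 was at 1.59, and Ntrk3, Ntf3 and Ntf5 were within 1 of 0. So 3 of the 7 genes were at 1 or more, against 18.3% of genes, and 1 at -1 or less, against 22.0%. With the deposited TPM over the same cells, Sort1 was at -0.19 and Ntrk3 at -0.51, Ntrk2 was at 1.79, Ngfr at 1.13 and Bdnf at -2.13, so that 2 of the 7 genes were at 1 or more (9.0% of genes) and 1 at -1 or less (30.3%). The Ntrk2 UMIs of the 867 cells were mainly in the adventitial fibroblast-like cells, at 31.6 CPM, and at 1.40 CPM in the myofibroblast-like cells.

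Markers of other cells were measured beside these levels. The 8 endothelial markers had a median of 6.42 CPM in bulk and 92.7 CPM in the single-cell library, the 5 general capillary markers 2.16 CPM in bulk and 47.6 CPM in the single-cell library, and the 6 large vessel markers 5.25 CPM in bulk and 14.2 CPM in the single-cell library. The 5 aerocyte markers went the other way, with a median of 99.95 CPM in bulk and 59.7 CPM in the single-cell library. Among lists of other lineages, the aerocyte list also scored highest in every smooth muscle-like, myofibroblast-like, lipofibroblast or matrix and adventitial fibroblast-like cluster. Its scores there were 1.512 to 2.095, against 5.14 in aerocyte endothelial-like cells, so its bulk level does not tell aerocytes from mesenchymal cells. Every mesenchymal list had a higher median in bulk. It was 462 CPM in bulk and 67.4 CPM in the single-cell library for the adventitial fibroblast list, and 476 CPM in bulk and 65.3 CPM in the single-cell library for the smooth muscle list. For the myofibroblast list it was 200.4 CPM in bulk and 34.9 CPM in the single-cell library, for the lipofibroblast or matrix list 158 CPM in bulk and 73.7 CPM in the single-cell library, and for the pericyte list 41.7 CPM in bulk and 9.56 CPM in the single-cell library. The part of these cells in the bulk Ntrk2 level was not tested. Of 6 Schwann markers in the bulk table, 0 reached 1 CPM. Erythroid genes summed to 10743 CPM in bulk and 6.20 CPM in the single-cell library, and their part in the CPM of other genes was not tested.

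**Figure D5:**
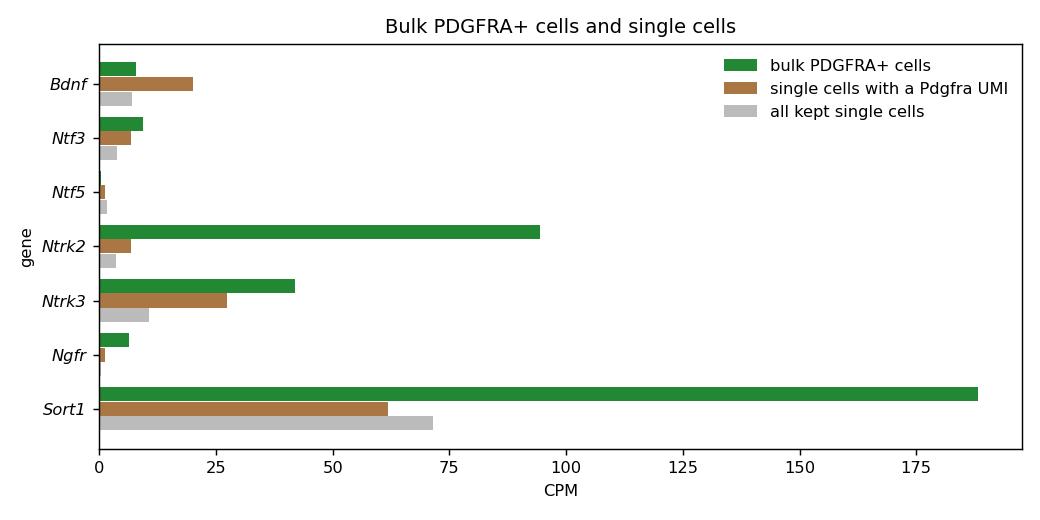
Bars are the level of each gene in CPM in the bulk library of PDGFRA+ cells, in the 867 single cells with a Pdgfra UMI and in all 10199 kept single cells. Ntrk2 is at 94.3 CPM in bulk and 6.82 CPM in the Pdgfra-positive single cells, while Bdnf is at 7.76 and 20.1 CPM.

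Other genes of the pathway were taken from 5 lists of 37 genes, of which 30 had at least 20 UMIs. At a log2 ratio of 1 or more were 6 in smooth muscle-like (9.85% of all genes), 5 in pericyte-like (10.8%), 7 in myofibroblast-like (16.2%), 8 in lipofibroblast or matrix fibroblast-like (14.3%) and 8 in adventitial fibroblast-like cells (14.9%). At -1 or less were 3 in smooth muscle-like (19.0% of all genes), 4 in pericyte-like (23.7%), 3 in myofibroblast-like (17.9%), 6 in lipofibroblast or matrix fibroblast-like (19.7%) and 3 in adventitial fibroblast-like cells (18.3%). The median ratio of the 30, against that of all genes, was -0.08 against -0.11 in smooth muscle-like, -0.19 against -0.14 in pericyte-like, 0.33 against 0.17 in myofibroblast-like, 0.06 against 0.03 in lipofibroblast or matrix fibroblast-like and 0.19 against -0.01 in adventitial fibroblast-like cells. Genes are named below only where their highest class was mesenchymal, so a mesenchymal highest class was set by that choice. Other genes of the lists were highest elsewhere, such as Grb2 and Furin in myeloid-like and Plcg1 in endothelial-like cells. Among proteases that can process proneurotrophins, Pcsk5 (a proprotein convertase) was at 84.3 CPM and Plat (tissue plasminogen activator) at 236 CPM in myofibroblast-like cells, the highest class of both. They were at 3.51 and 20.3 CPM in smooth muscle-like cells, and Pcsk5 was at 75.6 CPM in endothelial-like cells. Among adaptors of Trk receptors, Gab1 was highest in pericyte-like cells at 113 CPM, Frs2 in lipofibroblast or matrix fibroblast-like cells at 62.1 CPM, Shc1 in adventitial fibroblast-like cells at 51.2 CPM and Sh2b1 in myofibroblast-like cells at 33 CPM. Sh2b1 was close to that in adventitial fibroblast-like cells, at 31.4 CPM. Tnfrsf19, a receptor of the p75 family, was highest in myofibroblast-like cells at 162 CPM.

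The genes most like each member over the 12 named classes were taken by Pearson's r of log2(CPM + 1) among 10765 genes. These classes share 1 library, and r is a description. For Ntf3 they were Actc1 (r = 0.956), Ccdc42 (0.952) and Sod3 (0.926). For Ntrk3 they were Mmp17 (0.915), Casp12 (0.914) and Scara3 (0.907). For Bdnf they were Samd4 (0.895), Nme2 (0.894) and Ctgf (0.884). For Ntrk2 they were Tmod2 (0.902), Fmo1 (0.867) and Ptx3 (0.866). For Sort1 they were Ago4 (0.865), Cdc42bpg (0.856) and Fam234a (0.848). Ntf5 and Ngfr had under 100 UMIs and were left out.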

How the data were processed

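Single-cell values came from 1 library of wild-type cells, and bulk values from 1 library of PDGFRA+ cells. The submitters' processing notes name Cell Ranger 5.0 and Seurat 3.2.2 for the first library. For the second they name mm10, Trim Galore, HISAT2, featureCounts and DESeq2, without versions. The deposited single-cell values are whole numbers taken as a score: UMIs corrected for depth, inferred from cell totals that span only 1.79-fold. The plan had assumed raw UMIs, so no Poisson interval and no thinning were used for them. Bulk values by the authors were an expected count per gene (15.9% not whole), scaled here to CPM, and a TPM. The authors' deposited FPKM values were not used. In the bulk table, 2 rows of a repeated symbol were left out of lookups by symbol.

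Cells with at least 500 detected genes and at most 10% mitochondrial UMIs were kept. Doublets were predicted with Scrublet in scanpy 1.11.5 at an expected rate of 5%, which marked 4.33% of cells. Clustering used 2000 variable genes without the neurotrophin and pathway genes, 30 principal components, 15 neighbours and Leiden resolution 1 (leidenalg 0.10.2). Clusters were named by lineage and then by type within it, from marker scores (mean centred log2 level) of at least 1, with at least 3 markers found in 5% of cells. A cluster stayed unnamed where another lineage scored 0.5 or more of its best score, or where its 10 leading genes held more markers of another type. For endothelial, myeloid and lymphoid clusters, whose class is the lineage, only markers of another lineage counted among the leading genes. This naming rule was changed after a first version left myofibroblast clusters unnamed.

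A log2 ratio adds 1 CPM to both sides and was taken for genes with at least 20 summed UMIs. Calls are by size (1 or more, -1 or less), with no test. Pathway genes were named with at least 100 UMIs and a mesenchymal highest class, up to 4 per list by level. Like genes were the 3 of highest r, with at least 100 UMIs and 20 CPM in their highest class. Values of 2 genes of the pathway lists are not reported here. The members and lists were chosen with earlier results of these data known. Of the steps, the log2 ratio and the same-cell count were tested on simulated data. Tried alternatives were the cell filter, doublets, resolution, pseudocount, weighting of cells, UMI minimum, detection bound, TPM and Pdgfra-positive cells.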

Additional observations from a re-analysis of the deposited data

How the results depend on the processing

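With 1 sample in each group, leaving out a replicate was not possible. No paired analysis was possible because each group has 1 sample. Of the alternative values for the comparisons, 45 stayed within 1.5 times or within the interval and 9 moved. With a pseudocount of 5 CPM, the genes past a log2 ratio of 1 in size were 3 of 7 in smooth muscle-like cells (6 with 1 CPM), 1 in pericyte-like (6), 1 in myofibroblast-like (2), 1 in lipofibroblast or matrix fibroblast-like (3) and 2 in adventitial fibroblast-like cells (4). In myofibroblast-like cells there were 4 with a pseudocount of 0.5 CPM (Ntf5 lower and Ntrk3 higher were added) and 4 (Ntf5 and Sort1, both lower, were added) with at least 1000 detected genes and at most 5% mitochondrial UMIs. Ntf3 with Ntrk3 in the same smooth muscle-like cell was 1.33 times the product of shares where detection needed a value of 2 or more (0.99 with 1). Fewer cells count at the bound of 2, and the 1.33 is given without an interval. For bulk over the single-cell library, 6 genes were past 1 in size, and 3 with the deposited TPM over the Pdgfra-positive cells, an alternative chosen after the data were seen. There, Sort1 was at -0.19 and Ntrk3 at -0.51. For single genes, 415 values stayed, 64 moved and 3 turned, these and Sort1 over all kept cells: Sort1 in bulk over the single-cell library was at -0.40 with the deposited TPM and at 1.39 with CPM, and reads per length against reads per gene is the difference between them. The cause of the other moves was not tested. Ngfr, Ntf5 and the small epithelial and mesothelial classes are limited by depth and cell number.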
